A study of Mus musculus with 5 samples.

Results

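The 10 genes described here handle lipids and lipoproteins in glia: *Apoe*, *Clu*, *Abca1*, *Abca8a*, *Abca8b*, *Acsl3*, *Dbi*, *Ptgds*, *Fabp5* and *Lpl*. They were chosen by name, and all 10 were found among the 33696 mouse genes that every library listed. Their unique molecular identifiers (UMIs, 1 per captured mRNA molecule) were counted in tdTomato+ cells sorted from retinas by FACS, 56 days after AAV injection. Mice of both sexes carried Glast-CreERT2 and Rosa26-Ai65 on a C57BL/6J background, were 12 to 20 weeks old and were given tamoxifen to activate the Cre. Controls received an AAV of the ShH10 serotype that expresses *mKate2* from a *Gfap* promoter, and the other group one that expresses *Yap5SA*, a YAP with serine-to-alanine changes that keep it active, from the same promoter. Both vectors also carry FlpO, and tdTomato needs Cre and Flp in the same cell, so the label marks cells in which both promoters had been active and their daughters. For each condition retinas were pooled, 16 with *mKate2* AAV and 21 with *Yap5SA* AAV, and the animals behind each library are not given, so spreads between libraries may be technical.

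Glia are the main source of lipoprotein particles in the nervous system. Apolipoproteins such as ApoE and clusterin form particles around lipids that ABCA transporters move out of the cell, and receptors on other cells take these particles up. Inside the cell, fatty acids are activated to acyl-CoA by acyl-CoA synthetases, carried by binding proteins, and stored, burned or built into membranes. Müller glia (MGs), which span the retina, and microglia, its resident macrophages, both take part in this lipid traffic.

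The 5 libraries stem from 4 captures of cells. *Yap5SA* AAV replicates 1 and 2 shared 1361 cell barcodes. Their counts agree within sampling noise, with a chi-square of 0.426 per degree of freedom, so they were counted as 1 sample and replicate 2 was left out. Of 15293 barcodes, 10749 had at least 1000 UMIs and a mitochondrial share of at most 15%. Cells were called MGs where *Glul*, *Rlbp1*, *Slc1a3* and *Aqp4* together held at least 0.3% of their UMIs, which gave 1508 and 2695 MGs for the controls (replicates 1 and 2) and 751 and 1370 for *Yap5SA* AAV (replicates 1 and 3). There were 443 MGs between 0.3% and 0.4% and 382 cells between 0.2% and 0.3%. MG sums held 7927870 to 17377706 UMIs. The label was checked with 8 other MG genes, among them *Sox9*, *Lhx2* and *Vim*, which made up 0.498% of MG UMIs against 0.0803% in cells of the microglia gate and 0.0150% in cells of the rod gate, although the 20 cells of the pericyte gate reached 0.443%. No cell passed the astrocyte gate, which rests on *Pax2* alone at 0.1% of UMIs, so this does not show that astrocytes were absent. The further astrocyte genes *Gfap*, *S100b* and *Igfbp2* made up 0.0181% of MG UMIs. They reached 0.165% in kept cells of no gate and 0.446% in the pericyte gate. The labels call all sorted cells MGs, but gates for other classes held 1123 microglia-like cells, 1198 rod-like, 470 bipolar-like and 114 amacrine-like cells, and 1283 kept cells passed no gate. None of the 10 genes was used by a gate. Among the MGs, 394 also passed another gate, most of them in *Yap5SA* AAV replicate 3 with 230, and 59 of the 394 passed that of the pigment epithelium, which shares *Rlbp1* with MGs. Of those 59 cells, 50 came from *Yap5SA* AAV replicate 3, and results that rest on them are given with and without them.

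Of the 10 genes only *Abca8a* and *Abca8b* lie close together in the genome (GRCm39, GENCODE vM39). *Abca8a* (ENSMUSG00000041828) is at chr11:109916460-109986869 and *Abca8b* (ENSMUSG00000020620) at chr11:109823016-109886691, both on the minus strand with 39 exons each. *Abca1* (ENSMUSG00000015243) is at chr4:53030787-53159900 on the minus strand with 50 exons. *Apoe* (ENSMUSG00000002985) is at chr7:19430034-19434947 on the minus strand, and *Clu* (ENSMUSG00000022037) at chr14:66190200-66218999 on the plus strand. The 250 bases before the annotated start of *Abca1* and *Abca8b* are shown as examples. This pair was picked because the 2 transporters differ in their motif matches and, below, in whether they were higher in MGs or in microglia. A pair picked in this way cannot show whether motif matches go with levels, and this was not tested over the 10 genes. Capitals mark exact matches to 3 motifs. The first is the E-box, CACGTG. The second is the GC box, whose letters are GGGCGG, or their reverse complement CCGCCC when it lies on the other strand. The third is the TATA box, with the letters TATAAA.

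Abca1, chr4:53159901-53160150, minus strand: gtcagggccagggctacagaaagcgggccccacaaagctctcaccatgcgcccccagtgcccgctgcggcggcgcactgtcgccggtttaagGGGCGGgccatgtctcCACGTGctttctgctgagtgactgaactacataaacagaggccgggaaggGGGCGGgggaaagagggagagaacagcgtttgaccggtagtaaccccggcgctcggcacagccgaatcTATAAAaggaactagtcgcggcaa
Abca8b, chr11:109886692-109886941, minus strand: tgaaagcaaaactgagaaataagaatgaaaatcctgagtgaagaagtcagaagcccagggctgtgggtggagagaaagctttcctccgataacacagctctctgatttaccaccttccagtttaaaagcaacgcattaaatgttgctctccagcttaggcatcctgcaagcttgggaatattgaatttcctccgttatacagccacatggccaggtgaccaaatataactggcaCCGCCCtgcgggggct

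Counted from the start of transcription, the *Abca1* window had GC boxes at -158 and -92, an E-box at -142 and a TATA box at -24. That of *Abca8b* had a GC box on the other strand at -16 and no E-box or TATA box. Of 21757 such windows of protein-coding genes, 6.26% held the E-box, 36.3% the GC box and 11.9% the TATA box. The nuclear receptor motif AGGTCA was searched too, and all searches covered both strands. It was in 13.1% of all windows and in neither window shown, and the windows of *Apoe*, *Dbi* and *Ptgds* held none of these 4 motifs. Windows were set by the canonical transcript, so those of *Apoe*, *Clu*, *Lpl* and *Ptgds* lie within the annotated span of the gene and that of *Dbi* partly so. Bases before other starts of these genes were not searched. Reads of the paralogs *Abca8a* and *Abca8b* could mostly be told apart, since 1.33% of the 60-base stretches of the *Abca8a* transcript were also in *Abca8b* and none of the last 500 bases, from which these 3′ libraries count. *Fabp5* shared 16.3% of its stretches with other genes, again with none in the last 500 bases.

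MGs and microglia differed in every one of the 10 genes. *Clu*, *Abca8a*, *Abca8b*, *Acsl3*, *Dbi* and *Ptgds* were higher in MGs, and *Apoe*, *Abca1*, *Fabp5* and *Lpl* were higher in cells of the microglia gate. Counts were summed per library and class where a class had at least 20 cells, 16 sums in all, and tested across all genes with edgeR's quasi-likelihood test with library as a block. This comparison called 51.8% of 16883 genes at an adjusted p under 0.05, 30.4% higher and 21.4% lower in MGs, and the members' 6 higher and 4 lower stand against that background. The median log2 fold change was 4.29 over the 10 genes and 0.30 over all genes tested. Levels below are given as CPM, the gene's share of all UMIs of a sum on the counts-per-million scale, and since 1 end of each transcript is counted they need no correction for length. They are shares of the RNA captured in each class and do not tell RNA per cell.

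**Figure D1:**
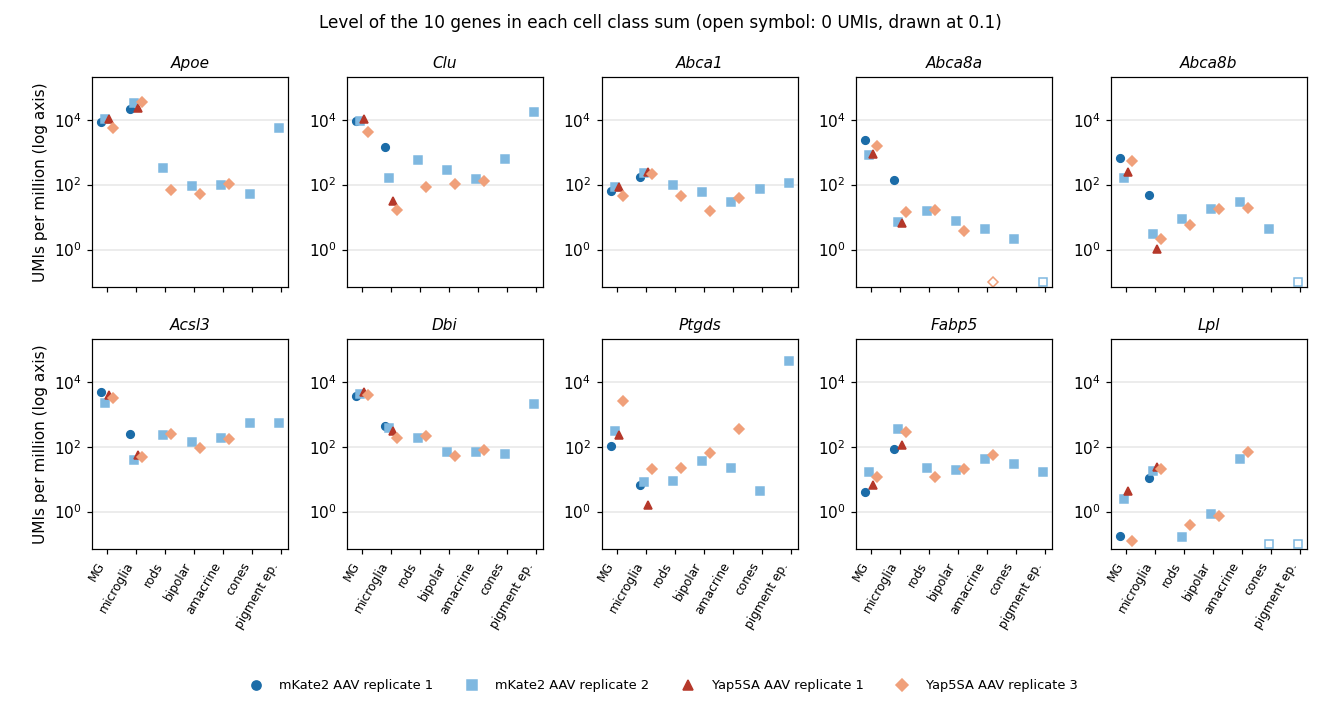
CPM (log axis) of each of the 10 genes, by cell class on the horizontal axis, with 1 symbol per library whose class sum has at least 20 cells and open symbols for 0 UMIs. *Apoe* sits between 5579 and 10467 in MGs and between 21190 and 34722 in microglia, while *Clu*, *Abca8a* and *Acsl3* fall by more than 1 step of 10 between MGs and most other sums, apart from *Clu* in the pigment epithelium.

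*Apoe* encodes the main apolipoprotein of the brain and retina. In MGs it stood at 8279 and 10467 CPM in the control captures 1 and 2 and at 10444 and 5579 in those of *Yap5SA* AAV numbered 1 and 3. In cells of the microglia gate it stood at 21190, 32161, 22134 and 34722 in the same order. All 4 microglial values lay above all 4 of MGs, and the MG level was lower by a log2 fold change of -2.05 ± 0.39 (SE, edgeR, adjusted p = 5.6e-04). Neurons had little of it, with 320 and 68.5 CPM in cells of the rod gate of *mKate2* AAV replicate 2 and *Yap5SA* AAV replicate 3. MGs were higher than rods by 5.92 ± 0.64 (SE, adjusted p = 9.1e-06), than bipolar cells by 7.36 ± 0.68 (adjusted p = 2.9e-06) and than amacrine cells by 6.90 ± 0.68 (adjusted p = 6.7e-06) on the log2 scale. After each cell had been thinned to 1000 UMIs, *Apoe* had a UMI in 92.3% ± 3.74 (SD, n = 4 captures) of MGs, 95.4% ± 2.36 (SD, n = 4) of the microglia gate and 9.29% ± 3.20 (SD, n = 2) of the rod gate. The median depths behind these shares were 2868 to 10778 UMIs in MGs, 4066 to 14368 in microglia and 3564 to 8734 in rods, and no cell was left out by the thinning.

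*Clu* encodes clusterin, a second apolipoprotein and extracellular chaperone. Its MG levels were 8985 and 8854 CPM with *mKate2* AAV and 10492 and 4257 with *Yap5SA* AAV. Microglia had 1436, 159, 31.5 and 16.4 in the same order, so the groups did not overlap. The difference was 5.76 ± 0.86 (log2, SE, edgeR, adjusted p = 8.4e-05). The high microglial value of 1436 came from *mKate2* AAV replicate 1, whose microglia gate held 29 cells, and without that replicate the difference was 6.69. In this same sum other MG genes also stood higher than in the other 3 microglial sums, with *Acsl3* at 249 against at most 56.1 and *Abca8a* at 140 against at most 14.4 CPM. What these other MG genes have to do with the *Clu* value was not tested. *Clu* exceeded rods by 4.71 ± 1.04 (adjusted p = 0.0023), bipolar cells by 5.26 ± 1.07 (adjusted p = 0.0014) and amacrine cells by 5.61 ± 1.11 (adjusted p = 0.0014), and all 3 calls were lost without *mKate2* AAV replicate 2, which left 1 sum per neuronal class. Rods of *mKate2* AAV replicate 2 still held 557 CPM against 83.7 in *Yap5SA* AAV replicate 3. The highest *Clu* level of all lay outside MGs, at 16879 CPM in the 20 cells of the pigment epithelium gate of *mKate2* AAV replicate 2, a single sum with no replicate and no test.

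*Abca1* encodes the transporter that loads cholesterol and phospholipid onto apolipoproteins. MG levels were 62.8, 83.7, 86.8 and 45.7 CPM in the 4 captures, and microglial levels 176, 231, 251 and 205. Every microglial value was above every MG value, with a log2 fold change of -2.03 ± 0.29 (SE, edgeR, adjusted p = 5.6e-05) in MGs. Against neurons its differences were smaller than those of *Apoe* and *Clu*. Rods had 98.1 and 45.3 CPM, which overlapped with MGs, and the difference of 0.10 ± 0.37 did not pass the test (adjusted p = 0.85). MGs were above bipolar cells by 1.21 ± 0.39 (adjusted p = 0.025) and above amacrine cells by 1.47 ± 0.45 (adjusted p = 0.019). Both calls depend on the fit. That over bipolar cells was lost under 5 of 12 alternatives, with adjusted p up to 0.34 (edgeR), and that over amacrine cells under 3 of 10, with adjusted p up to 0.51. Without *mKate2* AAV replicate 2 the differences were 1.87 and 0.70, and without *Yap5SA* AAV replicate 3 they were 0.87 and 2.02.

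*Abca8a* and *Abca8b* encode related transporters of the ABCA family whose substrates are less well known. *Abca8a* stood at 2324 and 791 CPM in MGs with *mKate2* AAV and at 869 and 1545 with *Yap5SA* AAV. In microglia it was 140, 7.10, 6.41 and 14.4. MGs were higher than microglia by 5.78 ± 0.54 (log2, SE, edgeR, adjusted p = 1.4e-06), than rods by 5.98 ± 0.72 (adjusted p = 2.1e-05), than bipolar cells by 7.42 ± 0.78 (adjusted p = 8.1e-06) and than amacrine cells by 8.39 ± 0.88 (adjusted p = 1.1e-05). The amacrine sums held 10 UMIs of *Abca8a* in *mKate2* AAV replicate 2 (4.41 CPM) and 0 in *Yap5SA* AAV replicate 3, which allows up to 8.26 CPM, so the size of the last difference is uncertain, at 7.66 to 15.4 when 1 capture was left out. *Abca8b* stood at 644, 165, 237 and 539 CPM in MGs and at 46.7, 2.99, 1.07 and 2.05 in microglia. The order of the 4 captures was the same for both paralogs, with *mKate2* AAV replicate 1 highest and *mKate2* AAV replicate 2 lowest. *Abca8b* exceeded microglia by 5.50 ± 0.56 (adjusted p = 2.7e-06), rods by 5.36 ± 0.70 (adjusted p = 3.9e-05), bipolar cells by 4.26 ± 0.66 (adjusted p = 1.7e-04) and amacrine cells by 3.79 ± 0.67 (adjusted p = 6.2e-04). Pigment epithelium of *mKate2* AAV replicate 2 had 0 UMIs of either gene among 121157, which allows up to 24.8 CPM.

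*Acsl3* encodes an acyl-CoA synthetase of the endoplasmic reticulum and lipid droplets, which activates long-chain fatty acids. Its MG levels were 4786, 2200, 4019 and 3174 CPM and its microglial levels 249, 37.5, 56.1 and 47.2, without overlap. The MG level was higher by 5.24 ± 0.36 (log2, SE, edgeR, adjusted p = 1.1e-07), and it exceeded rods by 3.44 ± 0.44 (adjusted p = 3.4e-05), bipolar cells by 4.62 ± 0.47 (adjusted p = 6.0e-06) and amacrine cells by 4.12 ± 0.46 (adjusted p = 1.7e-05). *Dbi* encodes the acyl-CoA-binding protein, which carries the products of such synthetases. It was the steadiest of the 10 genes between captures, at 3715, 4240, 4986 and 4003 CPM, a ratio of highest to lowest of 1.34. Microglia had 434, 385, 314 and 183, and MGs were higher by 3.34 ± 0.31 (adjusted p = 1.1e-06). Over rods the difference was 4.40 ± 0.44 (adjusted p = 5.8e-06), over bipolar cells 6.28 ± 0.49 (adjusted p = 1.1e-06) and over amacrine cells 6.14 ± 0.49 (adjusted p = 1.7e-06).

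*Ptgds* encodes prostaglandin D synthase of the lipocalin type, which is secreted and also carries retinoids and other lipids. Its level in MGs ran from 108 and 307 CPM in the 2 control captures to 229 and 2471 in *Yap5SA* AAV replicates 1 and 3. The last value stands apart, and 95.5% of its UMIs sat in the 50 MGs that also passed the pigment epithelium gate. Over the 4 captures these 59 cells held 20633 *Ptgds* UMIs and the other 6265 MGs 7591. Without them the levels were 108, 197, 228 and 116. Cells of the pigment epithelium gate that were not MGs had 42763 CPM in *mKate2* AAV replicate 2. *Ptgds* in microglia stood at 6.68, 8.41, 1.60 and 20.5 CPM. MGs were higher by 5.52 ± 0.59 (log2, SE, edgeR, adjusted p = 4.5e-06), and by 4.08 ± 0.72 (adjusted p = 3.3e-04) without the 59 cells. Over rods the difference was 6.08 ± 0.76 (adjusted p = 2.8e-05) with them and 4.13 ± 0.90 (adjusted p = 0.0022) without, and over bipolar cells 4.29 ± 0.70 (adjusted p = 2.6e-04) and 2.45 ± 0.82 (adjusted p = 0.028). Over amacrine cells the call was lost, from 3.47 ± 0.67 (adjusted p = 0.0012) to 1.26 ± 0.88 (adjusted p = 0.29). Amacrine cells had 21.6 CPM in *mKate2* AAV replicate 2 and 350 in *Yap5SA* AAV replicate 3, the latter above the 116 of MGs without these cells in that capture. The call over amacrine cells was also lost with an MG gate of 0.6% (1.66, adjusted p = 0.069) and without the library block (2.43, adjusted p = 0.17). It was lost too without *mKate2* AAV replicate 2, where the difference was 2.82. No other member lost a call in any of the 4 comparisons when the 59 cells were left out.

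*Fabp5* encodes a fatty acid-binding protein and *Lpl* lipoprotein lipase, the enzyme that frees fatty acids from lipoprotein triglycerides. In MGs *Fabp5* reached 4.03, 17.0, 6.60 and 11.4 CPM, against 84.6, 346, 109 and 290 in microglia. The MG level was lower by a log2 fold change of -4.74 ± 0.27 (SE, edgeR, adjusted p = 4.3e-08). Within MGs the few UMIs of this gene were unevenly spread, since the 1% of MGs with the most *Fabp5* UMIs held 56.9% to 70.2% of them by capture. Microglial gate genes made up 4.2e-04% to 0.0247% of the UMIs of MG sums, with the highest share in *mKate2* AAV replicate 2, where *Fabp5* was also highest, and their part was not tested. *Lpl* was at 0.17, 2.42, 4.25 and 0.13 CPM in MGs and at 11.1, 17.7, 23.5 and 20.5 in microglia, a log2 fold change of -3.95 ± 0.61 (adjusted p = 1.0e-04). A class other than microglia also stood above MGs, as amacrine cells had 40.6 and 68.8 CPM of *Lpl*, and MGs were lower than these by -4.76 ± 0.74 (adjusted p = 2.3e-04). *Fabp5* was lower in MGs than in amacrine cells by -1.24 ± 0.34 (adjusted p = 0.012), a call lost without either capture that held amacrine sums (-1.89 without *mKate2* AAV replicate 2 and -0.70 without *Yap5SA* AAV replicate 3). Against rods the differences were -0.07 ± 0.32 for *Fabp5* (adjusted p = 0.87) and 2.69 ± 1.27 for *Lpl* (adjusted p = 0.10), and against bipolar cells -0.14 ± 0.33 (adjusted p = 0.77) and 1.19 ± 0.99 (adjusted p = 0.36). After thinning to 1000 UMIs, 0 of 1508 MGs of *mKate2* AAV replicate 1 had a UMI of *Lpl*, which allows a share of up to 0.199% by counting error alone.

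**Figure D2:**
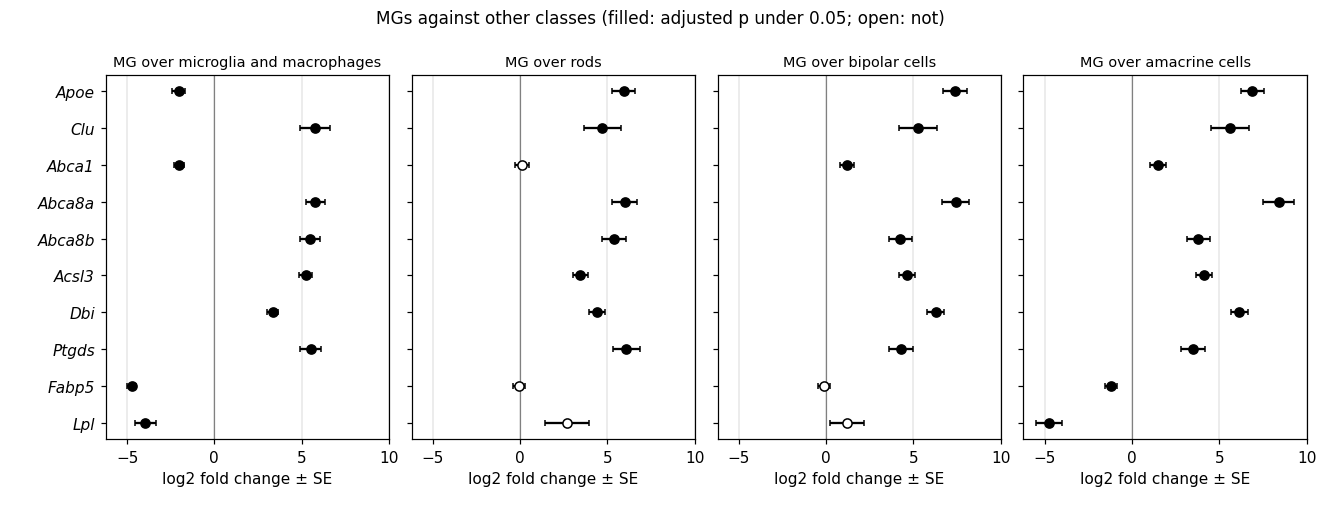
Log2 fold change of MGs over each of 4 cell classes on the horizontal axis with its standard error, for the 10 genes, filled where the adjusted p was under 0.05. *Apoe* lies at -2.05 against microglia and at 5.92, 7.36 and 6.90 against rods, bipolar and amacrine cells, while *Clu*, *Abca8a*, *Abca8b*, *Acsl3*, *Dbi* and *Ptgds* lie to the right in all 4 panels. The *Ptgds* call over amacrine cells was lost without MGs of the pigment epithelium gate.

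In these comparisons 7 of the 10 genes were higher in MGs than in rods and none lower, where 27.3% and 18.0% of all genes were called in these directions. All genes called were 45.3% there, 42.5% over bipolar cells and 36.7% over amacrine cells. Over bipolar cells 8 members were higher and none lower (24.4% and 18.1% of all genes), and over amacrine cells 8 were higher and 2 lower (21.6% and 15.1% of all genes). The neuronal sums came from *mKate2* AAV replicate 2 and *Yap5SA* AAV replicate 3 only. By median level over sums the order of the 5 classes with at least 2 sums, which leaves out cones and pigment epithelium, for *Apoe* was microglia, MGs, rods, amacrine and bipolar cells, where the range of rods overlapped with those of both other neurons and the ranges of amacrine and bipolar cells, at 95.2 to 107 and 50.9 to 90.1 CPM, did not overlap. For *Abca8a* it was MGs above rods, microglia, bipolar and amacrine cells, where rods lay within the range of microglia. For *Fabp5* it was microglia above amacrine cells, bipolar cells, rods and MGs, and bipolar cells lay within the range of rods, which overlapped with that of MGs.

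Of the other lipid genes, sorted into 7 lists, some stood higher in MGs and some in microglia. The counts of each list stand against the 30.4% higher and 21.4% lower of all genes in this comparison. Of 23 tested genes for lipoproteins, their receptors and sterol efflux, 7 (30.4%) were higher and 11 (47.8%) lower in MGs, with a list median of -0.44 against 0.30 over all genes. *Lrp2*, a large endocytic receptor, was at 68.1 ± 12.5 (SD, n = 4) CPM in MGs and 3.30 ± 5.31 in microglia (log2 fold change 4.89 ± 0.66, SE, edgeR, adjusted p = 4.9e-05). *Sorl1*, a sorting receptor, was at 318 ± 74.1 and 51.9 ± 27.6 (2.35 ± 0.25, adjusted p = 3.9e-06). In the other direction *Trem2*, a lipid-sensing receptor of microglia, was at 2.54 ± 3.90 in MGs and 708 ± 319 in microglia (-9.02 ± 0.83, adjusted p = 1.2e-06). The apolipoprotein genes *Apoc2* and *Apoc4* were also lower in MGs, by -6.71 ± 0.43 (adjusted p = 1.4e-07) and -5.33 ± 0.64 (adjusted p = 1.7e-05).

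Of 26 cholesterol synthesis genes 11 (42.3%) were higher in MGs and 3 (11.5%) lower than in microglia. *Srebf1*, a transcription factor of lipid synthesis, differed by 2.65 ± 0.29 (edgeR, adjusted p = 5.7e-06). *Soat1*, which esterifies cholesterol for storage, was lower in MGs by -1.47 ± 0.23 (adjusted p = 1.2e-04). Of 23 genes for fatty acid and triglyceride synthesis and droplets, 14 (60.9%) were higher and 3 (13%) lower. *Mgll*, monoglyceride lipase, stood at 215 ± 28.5 (SD, n = 4) in MGs and 9.72 ± 7.77 CPM in microglia. *Plin4* of the droplet coat had 116 UMIs in MGs and 0 in microglia, at least 6.87-fold higher in MGs with a floor of 3 counts over the microglial sums. The coat gene *Plin2* went the other way (-2.11 ± 0.25, adjusted p = 1.4e-05).

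The acyl-CoA synthetases were divided between the classes. Of 22 tested genes of fatty acid uptake, binding, activation and oxidation, 6 (27.3%) were higher in MGs and 3 (13.6%) lower, both shares under those of all genes, and the 3 lower ones were all synthetases. These were *Acsl5* (-3.83 ± 0.38, edgeR, adjusted p = 2.2e-06), *Acsl4* (-2.78 ± 0.23, adjusted p = 4.2e-07) and *Acsl1* (-2.57 ± 0.31, adjusted p = 1.4e-05). *Acsl6* was higher in MGs, as *Acsl3* was, at 125 ± 32.1 against 5.86 ± 5.61 CPM (4.53 ± 0.46, adjusted p = 2.8e-06).

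Prostaglandin genes other than *Ptgds* were lower in MGs or not called, with 0 higher and 6 (50%) lower of 12 tested. *Hpgds*, the other prostaglandin D synthase, stood at 1.23 ± 1.21 in MGs and 391 ± 72.1 CPM in microglia (-8.83 ± 0.53, edgeR, adjusted p = 5.1e-08), the opposite direction to *Ptgds*. The cyclooxygenase *Ptgs1* (-7.84 ± 0.47, adjusted p = 8.6e-08) and *Hpgd*, which inactivates prostaglandins (-7.29 ± 0.62, adjusted p = 1.1e-06), were lower too. Among 10 nuclear receptors and partners 2 (20%) were higher and 4 (40%) lower, with *Ppara* higher (3.02 ± 0.59, adjusted p = 7.3e-04) and *Pparg* lower (-3.05 ± 0.54, adjusted p = 3.5e-04) in MGs.

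Against neurons, the list of lipoproteins, receptors and efflux had 14 genes (60.9%) higher and 2 (8.70%) lower of 23 in MGs than in rods, where 27.3% and 18.0% of all genes were called. It had 11 (47.8%) and 3 (13%) against bipolar cells, beside 24.4% and 18.1% of all genes, and 9 (39.1%) and 2 (8.70%) against amacrine cells, beside 21.6% and 15.1%. Of 26 cholesterol synthesis genes 10 (38.5%) were higher and 4 (15.4%) lower than in rods, 10 (38.5%) and 1 (3.85%) than in bipolar cells, and 3 (11.5%) and 5 (19.2%) than in amacrine cells, where the share higher was under that of all genes. Fatty acid uptake and oxidation had 8 (36.4%) and 3 (13.6%), 11 (50%) and 2 (9.09%), and 14 (63.6%) and 2 (9.09%) of 22 in the same order. *Lrp1*, a receptor for ApoE particles, was at 214 ± 49.5 (SD, n = 4) CPM in MGs and 5.43 ± 2.83 (SD, n = 2) in rods. *Vldlr*, another lipoprotein receptor, was lower in MGs than in each neuronal class, by -3.73 ± 0.46 against rods (edgeR, adjusted p = 2.3e-05), -2.26 ± 0.44 against bipolar cells (adjusted p = 0.0010) and -2.29 ± 0.45 against amacrine cells (adjusted p = 0.0013). *Acadl*, of mitochondrial fatty acid oxidation, was higher in MGs than in all 3, at 140 ± 43.0 CPM against 4.92 ± 2.19 in rods, 1.47 ± 0.07 in bipolar cells and 0.88 ± 1.25 in amacrine cells. *Cpt1a*, which lets fatty acids into mitochondria, was lower in MGs than in rods (-1.86 ± 0.27, adjusted p = 1.0e-04) and higher than in amacrine cells (3.84 ± 0.44, adjusted p = 2.0e-05).

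No member passed the test between *Yap5SA* and *mKate2* AAV in MGs. The contrast asked whether MGs that had gone through YAP activation, or that descend from such cells, held other levels of these genes at 56 days. With 2 captures a group, edgeR called 0 of 15203 genes (0% of all tested). The unadjusted p was under 0.05 for 22 genes in edgeR and for 31 in DESeq2, which also called 0. All 7 other lists also had 0 called genes. Groups overlapped for each of the 10 genes. The share of all tested genes that overlap is not given, so this count tells nothing particular about the members. Log2 fold changes of *Yap5SA* over *mKate2* AAV were -0.35 ± 0.55 (SE) for *Apoe*, -0.39 ± 0.60 for *Clu*, -0.27 ± 0.40 for *Abca1*, -0.41 ± 0.60 for *Abca8a* and -0.08 ± 0.72 for *Abca8b*. They were -0.02 ± 0.48 for *Acsl3*, 0.07 ± 0.42 for *Dbi*, -0.38 ± 0.82 for *Fabp5* and 0.53 ± 1.72 for *Lpl*, and every adjusted p was 1.0. For *Ptgds* the value was 2.58 ± 1.26 with the cells of the pigment epithelium gate and 0.04 ± 0.50 without them, neither of them past the test. SEs were 0.40 to 1.72 for the 10 genes, and differences well above these can be missed too, as the 2.58 ± 1.26 of *Ptgds* was not called. The missing calls therefore do not show that levels were equal.

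**Figure D3:**
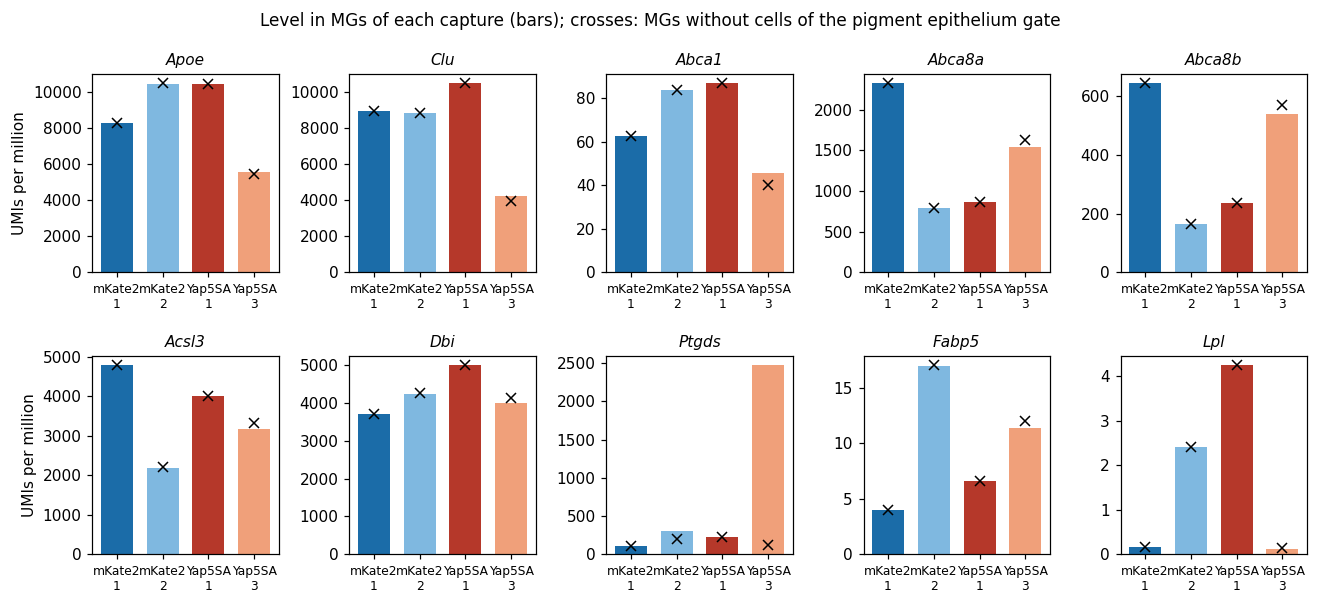
CPM of each of the 10 genes in the MG sum of each capture (bars from 0, 1 capture each), with crosses for MGs that did not pass the pigment epithelium gate. Captures of the 2 conditions overlap in every panel, for which no share over all genes is given. The *Ptgds* bar of *Yap5SA* AAV replicate 3 falls from 2471 to 116 when those cells are left out.

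The captures fall into 2 processing batches, and the file headers name Cell Ranger 8.0.0 for *mKate2* AAV replicate 1 and *Yap5SA* AAV replicate 1 and 9.0.1 for the other pair. Within the first pair the log2 ratio of *Yap5SA* over *mKate2* AAV was 0.34 for *Apoe*, 0.22 for *Clu* and 0.47 for *Abca1*, and within the second pair it was -0.91, -1.06 and -0.87. The paralogs went the other way round, with -1.42 and 0.97 for *Abca8a* and -1.44 and 1.71 for *Abca8b*. *Acsl3* gave -0.25 and 0.53, *Dbi* 0.42 and -0.08, *Fabp5* 0.71 and -0.58 and *Lpl* 4.63 and -4.26. *Ptgds* gave 1.09 and 3.01 with the cells of the pigment epithelium gate and 1.09 and -0.76 without them, and without them every member changed sign between the pairs. Median depth also differed between the batches, at 5951 and 10778 UMIs per MG in the first and 2992 and 2868 in the second, and rod gate genes made up 0.134% of MG UMIs in *Yap5SA* AAV replicate 3 against 0.000827% to 0.0482% in the other captures. Their part in the levels was not tested.

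Whether the AAV effect differed between MGs and microglia was fitted as an interaction, which was added after the data had been seen. It called 1 of 16090 genes (0.00622%) and no member. The lowest adjusted p of a member was 0.44, for *Clu*, whose interaction of 3.99 ± 0.95 (log2, SE) includes the 29 microglia of *mKate2* AAV replicate 1 described above.

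The share of MGs with a UMI was highest for *Apoe* and *Dbi*. At 1000 UMIs per cell the mean over 4 captures was 87.1% ± 5.82 (SD) for *Clu*, 91.2% ± 2.23 for *Dbi*, 79.8% ± 5.09 for *Acsl3*, 52.4% ± 14.4 for *Abca8a* and 20.0% ± 11.3 for *Abca8b*. The same shares in cells of the rod gate (n = 2 captures) were 19.3%, 12.5%, 16.7%, 1.85% and 0.426%. *Ptgds* had a UMI in 14.6% ± 4.59 of MGs and 1.86% of rods. *Abca1* had a UMI in 4.91% ± 1.19 of MGs, which is below the 6.09% of rods, so this measure did not set MGs above rods. Its share was 17.2% ± 6.47 in the microglia gate. How much of these shares is background was not measured. *Fabp5* at 0.937% ± 0.501 of MGs was likewise below the 1.09% of rods and far below the 10.2% ± 5.41 of microglia. Between conditions the exact permutation test (two-sided) gave a lowest p of 0.667 over the 10 genes in MGs. With 2 captures against 2 this test cannot give a p under 0.333, so it cannot decide whether shares differed.

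Within MGs the genes divided by depth. MGs with at least 5000 UMIs (2447 cells) were compared with those under 5000 (3877 cells) in each capture. The study set aside the larger of its cell clusters, which had fewer UMIs and a higher ribosomal share, as stressed by dissociation. No cells were removed by cluster here, so the MG sums and both depth parts may hold such cells. *Dbi* was lower in the deeper cells in 4 of 4 captures, at 3350, 3020, 4868 and 2418 CPM against 6042, 7281, 6897 and 7400 in the shallower ones. *Abca8b* was higher in the deeper cells in 4 of 4, at 694, 206, 245 and 706 against 325, 64.3, 110 and 183. *Abca8a* followed it with ratios of 1.58 to 2.11, while *Fabp5* followed *Dbi* with 0.233 to 0.849. *Apoe* and *Clu* were higher in the deeper cells in 3 captures and lower in *mKate2* AAV replicate 2, with ratios of 0.756 and 0.832 there. *Ptgds* had ratios of 1.09 to 5.36, but without cells of the pigment epithelium gate it was higher in the deeper cells in 2 captures only, at 1.94 and 1.55 in the replicates numbered 1 and 0.583 and 0.454 in *mKate2* AAV replicate 2 and *Yap5SA* AAV replicate 3. These ratios carry no test, because cells of 1 capture are not replicates.

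**Figure D4:**
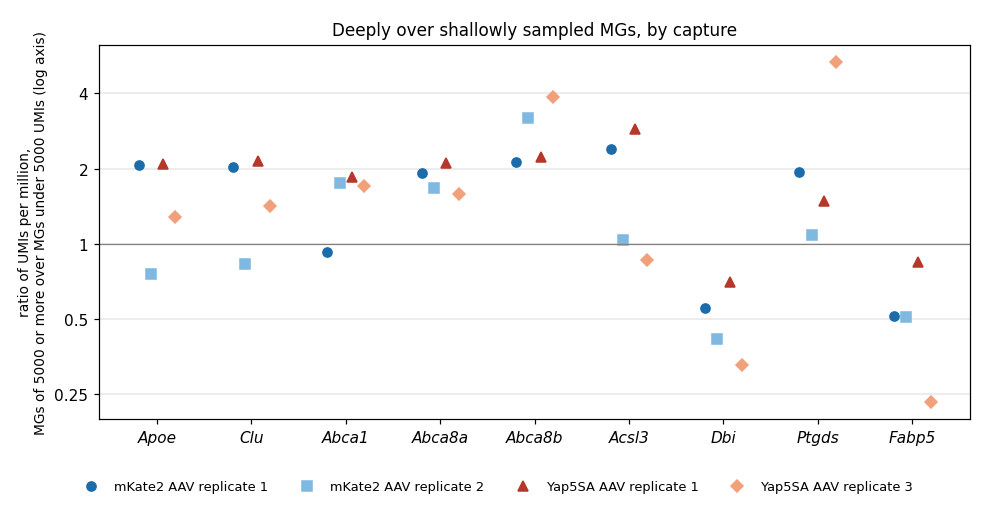
Ratio of CPM in MGs of at least 5000 UMIs to that in MGs under 5000 UMIs (log axis, 1 means equal), with 1 symbol per capture for 9 genes; *Lpl* is left out because 2 captures gave no ratio. *Abca8a*, *Abca8b* and *Ptgds* lie above 1 in all 4 captures and *Dbi* and *Fabp5* below 1 in all 4, and without cells of the pigment epithelium gate *Ptgds* lies above 1 in 2 captures only.

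Cell by cell, some pairs of members went together. In MGs of at least 5000 UMIs, thinned to 5000 and without cells of the pigment epithelium gate, Spearman's rho between *Apoe* and *Clu* was 0.33 to 0.73 in the 4 captures, and between *Abca8a* and *Abca8b* 0.34 to 0.49. *Abca8a* and *Dbi* ran against each other, with rho from -0.43 to -0.34, and *Abca8b* and *Dbi* did too, from -0.54 to -0.18. Other pairs changed sign between captures, such as *Apoe* and *Abca8a* at -0.25 to 0.21. The values are descriptions over cells that share a library.

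Across the 16 sums of classes and libraries, the genes whose log2 level was most like that of a member, among 4267 genes with a mean of at least 50 CPM, were found by Pearson's r. For *Apoe* these were *Clic1* and *Ifitm3* (both 0.99), for *Clu* *Rrh* (0.93) and *Cnn3* (0.92), and for *Abca1* *H2-D1* (0.94) and *Mapkapk2* (0.93). *Abca8a* was most like *Folh1* and *Cav1* (both 0.98). *Abca8b* was most like *Gm11906* (0.98) and *Septin8* (0.95). *Acsl3* was most like *Prpsap1* (0.95) and *Cdkn1b* (0.94), and *Dbi* most like *Romo1* and *Polr2f* (both 0.98). For *Ptgds* the genes were *Slc48a1* (0.95) and *Ttr* (0.90), and *Ttr* is 1 of the 4 genes that define the pigment epithelium gate. *Fabp5* was most like *Abhd12* (0.93) and *Retreg1* (0.92), and *Lpl* most like *Alcam* and *Ywhah* (both 0.94). The sums share libraries and classes, so these values carry no test.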

How the data were processed

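The authors sorted tdTomato+ cells from pooled retinas and made 10x Genomics 3′ v3.1 libraries. The deposited files hold raw UMI counts per gene and cell barcode against the mouse reference GRCm39 of 10x Genomics. The file headers name Cell Ranger 8.0.0 for 3 libraries and 9.0.1 for 2, whereas the study's methods name 8.0.0. A tdTomato entry that only 3 libraries list was dropped, which left 33696 genes. Groups were taken from the sample titles and treatments.

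Cells needed at least 1000 UMIs and at most 15% mitochondrial UMIs. The other classes were gated on marker genes at 0.3% of UMIs (microglia and macrophages, rods, pigment epithelium) or 0.1% (all others), thresholds that were set after the data had been seen, and a cell was given a class where it passed that gate alone and not that of MGs. The 125 cells of several gates were set aside, and no doublet caller was run. The 10 genes, the pathway lists and the tests were chosen with earlier results of these data known.

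Counts were summed per library, or per library and class, and tested with edgeR 4.0.16 in R 4.3.3 (TMM, filterByExpr, quasi-likelihood, Benjamini-Hochberg over all genes tested, threshold 0.05, two-sided). DESeq2 1.42.0 was an alternative. The fits were also run on simulated data, and the outcome is not reported here. Shares of cells came from cells thinned to 1000 UMIs, with no test between conditions other than the exact permutation test over captures. Intervals and limits for a count of 0 cover counting error only. Python 3.11.15, numpy 2.4.6, pandas 2.3.3 and scipy 1.17.1 were used for sums, thinning and sequence searches. Upstream windows were the 250 bases before the start of the canonical transcript in GENCODE vM39.

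Named were the 10 genes in every comparison, in each pathway list up to 3 called genes with the largest rise and fall, and for each member the 2 genes with the most similar pattern. Some of those named genes, and 1 upstream window, are not reported here. The alternatives were other scalings, filters, gates, depths and mitochondrial limits, batch or replicate number as a term, and leaving out each capture.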

Additional observations from a re-analysis of the deposited data

How the results depend on the processing

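Over microglia all 10 calls held under each of 12 alternatives, and those of *Apoe*, *Abca8a*, *Abca8b*, *Acsl3* and *Dbi* held under 12 over rods and bipolar cells and under 10 over amacrine cells. Leaving out 1 capture at a time gave 5938 to 8053 called genes over microglia, 3115 to 7917 over rods, 2148 to 7396 over bipolar cells and 1380 to 6404 over amacrine cells, against 8746, 7650, 7171 and 6194 with all captures. The low counts came without *mKate2* AAV replicate 2, and without *Yap5SA* AAV replicate 3 they were 3972, 3691 and 3357 over the 3 neuronal classes. Either step leaves these classes 1 sum each, assumed to vary like the others. Under DESeq2 the split over amacrine cells was 2879 higher and 3078 lower, against 3649 and 2545, and the median log2 fold change of all genes moved from 0.26 to -0.07. No value could be had over amacrine cells with at least 3000 UMIs per cell or 50 cells per sum. *Abca1* over rods was -0.084 in a fit of both classes alone, -0.042 with an MG gate of 0.6% and -0.018 without the library block, and *Lpl* over rods was called without the filter on low counts (2.73, edgeR, adjusted p = 0.011).

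In the AAV contrast no member was called in 150 alternative fits (lowest adjusted p, edgeR or DESeq2, 0.92). Replicate numbers do not pair the samples, since no source ties them to an animal or day. Fits over 5 libraries count *Yap5SA* AAV replicates 1 and 2, which are the same cells, as separate samples, so their p-values cannot be relied on. Of these, the replicate block called 0 of 16103 genes, with 946 at an unadjusted p under 0.05 (edgeR). The replicate block also turned the sign of *Acsl3* (0.19), *Abca1* (0.14), *Clu* (0.081) and *Apoe* (0.017). *Acsl3* was also at 0.043 with processing batch as a term, 0.030 with 5 libraries counted singly, 0.021 with the gate of 0.6%, 0.031 with MGs of no other gate and 0.015 without the pigment epithelium gate. *Fabp5* was at 0.48 with the gate of 0.6%, and *Abca8b* at 0.037 with batch and 0.056 with MGs of no other gate. Without 1 capture at a time the log2 fold change ran from -0.40 to 0.51 for *Acsl3*, -0.12 to 0.29 for *Dbi*, -0.023 to 3.70 for *Ptgds*, -1.11 to 1.18 for *Fabp5*, -0.77 to 0.11 for *Abca1*, -0.83 to 0.025 for *Apoe*, -3.42 to 3.58 for *Lpl*, -0.84 to 1.05 for *Abca8b*, -0.91 to 0.42 for *Abca8a* and -1.14 to 0.11 for *Clu*. Over classes it turned sign for *Fabp5* over rods (-0.15 to 0.16) and bipolar cells (-0.63 to 0.25) and *Lpl* over bipolar cells (-0.24 to 1.73). The causes of these changes were not tested.

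Shares of MGs with a UMI at 2000 UMIs per cell, where shallower cells were left out, and in all MGs without thinning were 97.4% and 96.6% for *Apoe*, 94.8% and 93.0% for *Clu*, 9.25% and 26.2% for *Abca1*, 72.6% and 75.0% for *Abca8a*, 33.0% and 46.4% for *Abca8b*, 90.8% and 89.3% for *Acsl3*, 95.4% and 98.0% for *Dbi*, 25.4% and 42.4% for *Ptgds* and 1.73% and 3.17% for *Fabp5*. For *Lpl* the unthinned share was 1.20%.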
